A study of Caenorhabditis elegans with 42 samples.

Results

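Embryos of the Caenorhabditis elegans strain RB886, which carries the ok735 allele of adr-2, were compared with embryos of the wildtype strain N2. The comparison used 7 of the 42 libraries of the series, 3 of RB886 and 4 of N2 embryos, and every transcript of the authors' table for this pair of groups. That table held 34873 transcripts of 30304 genes. Of these genes 27049 had a mean above 0 in at least 1 group and were tested, and 3255 were listed at 0 in both. RNA abundance was measured by RNA sequencing of whole embryos, and the series asks how altered and absent editing affect development.

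ADAR enzymes bind double-stranded RNA and turn adenosine into inosine, which is read as guanosine. In C. elegans ADR-2 is the active deaminase, and ADR-1 is a relative that binds double-stranded RNA and affects which sites ADR-2 edits. Editing falls mostly on paired stretches of introns, 3' ends and non-coding RNA, and the same RNA can also enter the RNA interference pathways.

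Both groups were grown under the same conditions, on plates with bacteria as food, and their embryos were released from gravid adults with hypochlorite. The labels give no embryonic age and no sort, so all cells of the embryos contributed. RB886 differed from N2 by the labelled adr-2 mutation, and other differences between the strains were not tested. The embryos of BB3, a strain with the gv42 allele of adr-2 (3 libraries), and the L4 larvae, the last larval stage, of RB886 (3 libraries, against 3 of N2) are given beside the results. Embryos of BB19 (3 libraries) and BB2 (2 libraries), which carry the adr-1 alleles tm668 and gv6, are given for single genes. Medians of the genes higher by 2-fold are given for them too. L4 larvae of BB3 (3 libraries) are given for single genes, against the same N2 larvae. All 4 mutant strains were compared with the same N2 embryo libraries, whereas the L4 larvae share no library with the embryos.

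The deposited values are means over the libraries of a group, and neither an SD nor the overlap of the groups can be given. The means summed to 17398100 normalised counts in N2 and 17043600 in RB886, and depth per library is unknown. Over 4389 genes, the deposited p-values matched a z-value with a median of 0.954 times that of counting error alone (quartiles 0.891 and 1.02). The p-values therefore hold little of the spread between libraries, and small changes with small p-values may lie within that spread. The titles of 2 of the 3 RB886 libraries carry what reads as the same date, and 1 RB886 library shares a date with 1 N2 library. The sources used here do not say what these dates mark. The p-values thus describe these libraries, which may not all be separate cultures. In the BB3 embryo table, 77 of 962 genes with means over 1000 and a log2 fold change of at least 0.1 in size were not called, against 6 of 1152 in the RB886 embryo table. In the authors' deposited BB3 table B0284.1 had 10300 in N2 and 11200 in BB3 (adjusted p = 0.93), while dnj-19 had 5370 and 5400 (adjusted p = 0.00141). BB3 calls, and list counts made from them, are therefore not directly comparable with those of RB886. A missing call in BB3 does not show that a gene is unchanged.

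The targeted gene was strongly reduced in the mutant embryos. The mean of adr-2 was 2110 normalised counts in N2 and 133 in RB886, or 6.30% of the N2 level. In the authors' deposited table this is a log2 fold change of −3.99 with an adjusted p listed as 0. BB3 embryos had a mean of 117 against 2010 in their own table, and RB886 larvae had 99.9 against 1220. Its partner adr-1 stayed close to the wildtype level, at 6600 in N2 and 6310 in RB886 (log2 fold change −0.06, adjusted p = 7.34e-05 in the authors' deposited table). The sign for adr-1 was the opposite in RB886 larvae, where the authors' deposited table gives 0.10 (adjusted p = 0.0019).

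Genes beside adr-2 on chromosome III were examined because a deletion can touch its neighbours. The next gene in the WBcel235 annotation, T20H4.5 (named ndus-8 there, a subunit of the respiratory complex I), fell from 632 to 497. Its log2 fold change was −0.35 (adjusted p = 1.34e-12) in the authors' deposited table. It was also lower in BB3 embryos (−0.25) and in RB886 larvae (−0.22) by the authors' deposited tables. Further out, pars-1, the prolyl-tRNA synthetase, fell by 0.15 on the log2 scale in the authors' deposited table, from 3760 to 3390. On the other side R151.10 fell by 0.12 in the authors' deposited table, from 933 to 856. The other 7 of the 10 neighbours, 5 on each side, did not pass the test in RB886 embryos. Lower calls made up 56.9% of all genes with means over 3000, as for pars-1, at a median log2 ratio of −0.06. At means over 300 and up to 1000, as for T20H4.5 and R151.10, they made up 16.7%, at a median of −0.004. An effect of the mutation on its neighbours was not tested.

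Most changes across the transcriptome were small. By the authors' adjusted p under 0.05, 2507 genes were higher in RB886 (9.27% of 27049 tested) and 2415 were lower (8.93%). Of these 4922 genes, 3010 (61.2%) changed by less than 1.2-fold, and the median size of a change was 0.21 on the log2 scale. At a size of at least 1.5-fold 479 genes remained on the higher and 135 on the lower side. At 2-fold or more, with a mean over both groups of at least 10, there were 67 higher (0.248%) and 22 lower genes (0.0813%). Over the 10080 genes whose mean was 100 or more, the median absolute log2 difference was 0.0890 between RB886 and N2, 0.0808 between BB3 and N2 and 0.0961 between the log2 fold changes of RB886 and BB3.

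**Figure D1:**
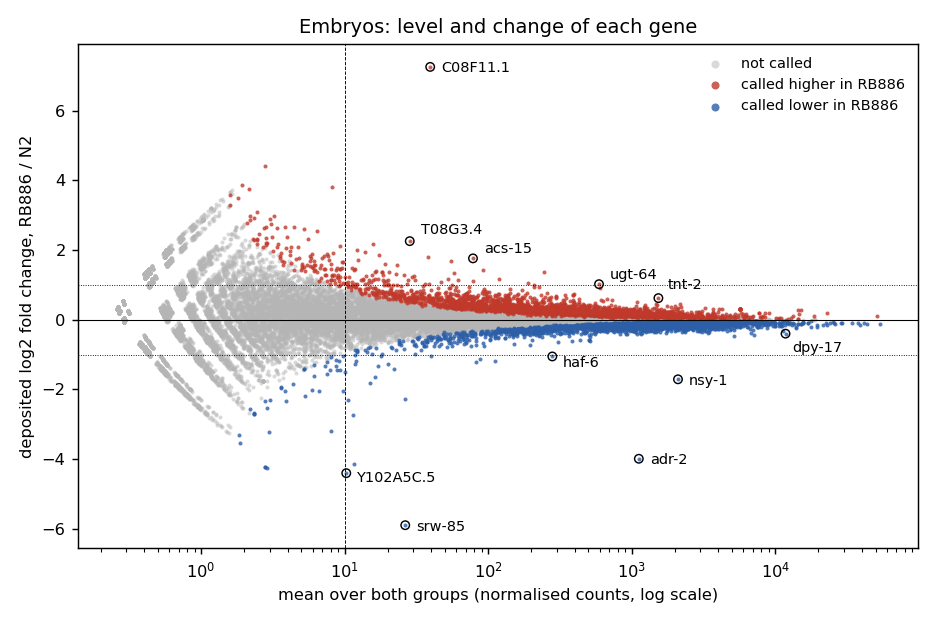
Each point is 1 of the 24339 genes with both means above 0, by the mean over both groups (normalised counts, log scale) and the authors' deposited log2 fold change of RB886 over N2. Dotted lines mark 2-fold and the dashed line a mean of 10; adr-2 and nsy-1 stand below 2-fold at high levels, while most points beyond 2-fold lie at low levels.

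The balance of higher and lower genes differed by level. Levels here are counts per transcript that are not divided by its length. Among the 2818 genes with means over 30 and up to 100, 13.4% were higher in RB886 and 4.51% were lower. Among the 922 genes with means over 3000, 13.6% were higher and 56.9% were lower, with a median log2 ratio of −0.06. Without ribosomal protein genes, the same level held 124 higher and 502 lower of 898 genes. Gene lists below are therefore set beside all genes of the level class that holds the list's median mean, called genes of like level. This matches levels only coarsely, since members of a list span several classes.

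**Figure D2:**
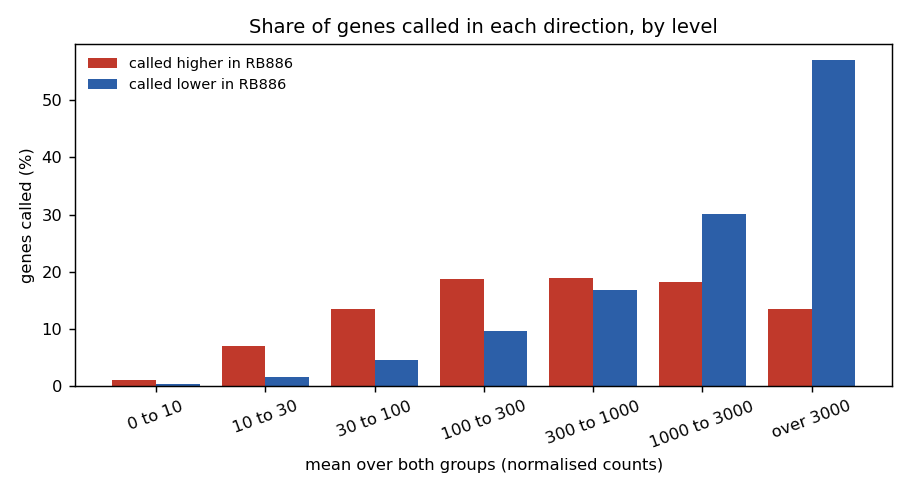
Bars give the percentage of tested genes called higher (red) or lower (blue) in RB886 embryos at an adjusted p under 0.05, in 7 classes of the mean over both groups (normalised counts). Calls on the lower side grow with level, from 0.402% at means up to 10 to 56.9% above 3000.

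The genes with the largest increases mostly had low means in N2 embryos, and the way they were chosen favours this. A gene with a low N2 mean could reach the mean of 10 over both groups through its RB886 value. Of all 27049 tested genes, 11680 had a mean over both groups of at most 10. The 67 genes higher by at least 2-fold had N2 means between 0.512 and 391 with a median of 10.4, and a median of 26.5 in RB886. In 62 of them the N2 mean was under 50. C08F11.1, a protein-coding gene on chromosome IV that overlaps 4 annotated genes, had a mean of 0.512 in N2 and 78.4 in RB886. The authors' deposited table gives it a log2 fold change of 7.26 (adjusted p = 9.58e-86). In the other mutant embryos its mean was 56.9 in BB3, 68.5 in BB19 and 67.5 in BB2, all set against the same N2 libraries. In larvae it was present in N2 too, at 33.8 against 27.1 in RB886, and did not pass the test (adjusted p = 0.384 in the authors' deposited table).

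The median deposited log2 fold change of the 67 genes was 1.17 in RB886, which chose them, and 0.90 in BB3, 0.67 in BB19 and 0.83 in BB2 embryos in the authors' deposited tables. All 4 values rest on the same N2 libraries, whose means entered the choice. Some single genes stood apart from these medians. The pseudogene T08G3.4 rose from 9.84 to 47 (log2 fold change 2.26, adjusted p = 1.36e-16 in the authors' deposited table) and had 5.31 in BB3, 10.9 in BB19 and 8.16 in BB2. The acyl-CoA synthetase gene acs-15 rose from 35.8 to 121 (1.76, adjusted p = 3.01e-30 in the authors' deposited table). It fell in BB3 embryos, from 34.1 to 20 (−0.77, adjusted p = 0.00348 in the authors' deposited table). The receptor guanylyl cyclase gene gcy-17 rose from 26.1 to 83.8 (1.68, adjusted p = 5.04e-21 in the authors' deposited table), against 19.7 in BB3 and 27.8 in BB19. The F-box gene fbxa-47 rose from 11.6 to 34.5 in RB886 (1.57 in the authors' deposited table) and fell in BB3, where its mean was 4.97 (−1.16 in the authors' deposited table). Differences between strains were not tested, since each table holds group means only.

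Other increases were accompanied by an increase in BB3 embryos. The zygotic gene sdz-20, named as a target that depends on SKN-1, rose from 5.76 to 26 in RB886 and from 5.49 to 26.4 in BB3. The authors' deposited tables give log2 fold changes of 2.17 (adjusted p = 1.83e-10) and 2.27. In BB19 its mean was 2.77 and in BB2 3.63, and in RB886 larvae it was listed at 0 in N2 and at 7.17 in the mutant. The neighbouring pseudogenes C23H5.4, C23H5.5 and C23H5.6 on chromosome IV were all higher. C23H5.4 had means of 17.1 in N2 and 59.2 in RB886 (1.79, adjusted p = 7.65e-19 in the authors' deposited table), and C23H5.6 had 49.9 and 134 (1.42, adjusted p = 2.76e-31 in the authors' deposited table). C23H5.5 rose from 33 to 83 (1.33 in the authors' deposited table).

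The remaining large increases were at low levels, and a pair of them were predicted chemoreceptor genes of sensory neurons. The gene sra-32 stood at 4.87 in N2 and 19.6 in RB886 (2.01, adjusted p = 2.41e-06 in the authors' deposited table), and sre-48 at 5.76 and 19 (1.72, adjusted p = 7.95e-05 in the authors' deposited table). K02F6.4, F21D9.7, C55C3.3, F36F12.3 and the scavenger receptor gene scav-5 complete the 15 largest increases, with N2 means of 5.77, 7.51, 9.46, 6.31 and 5.84. Among 1310 measured chemoreceptor genes, with a median mean of 0.745 normalised counts, 26 were higher (1.98%) and 10 lower (0.763%), beside 128 and 47 of the 11680 genes of like level. Higher by 2-fold were 3 of the 1310. A call at 2-fold needed a mean of at least 10, which most of these genes did not reach. Their share can therefore not be set beside the 0.248% of all genes.

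**Figure D3:**
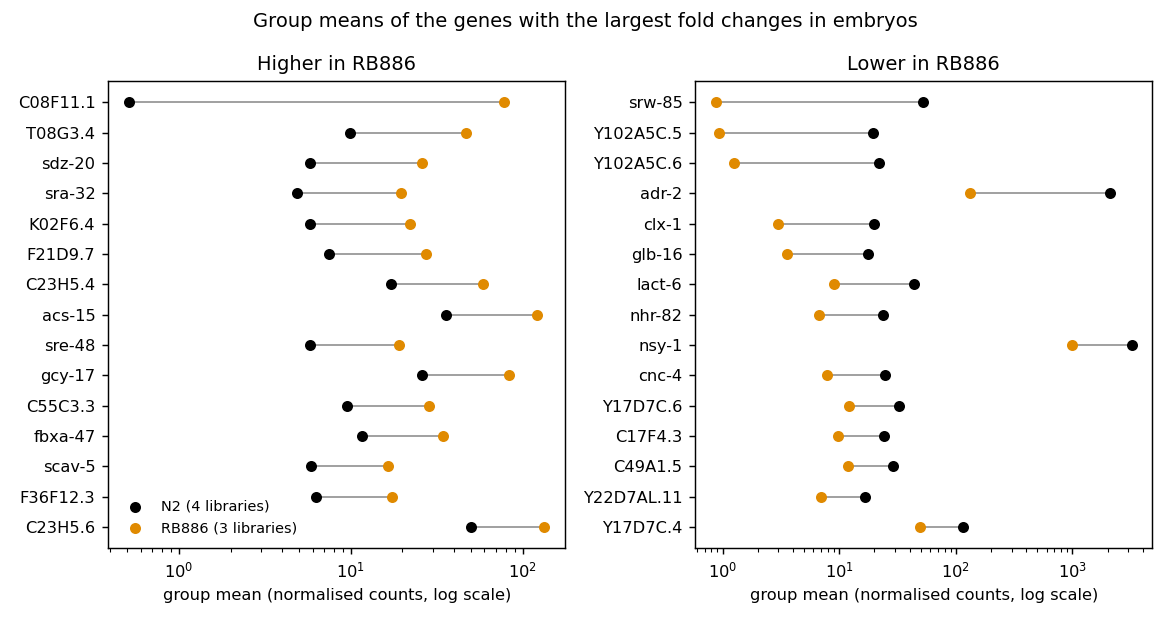
Group means in normalised counts (log scale) of the 15 genes with the largest deposited fold change in each direction; black points are N2 and orange points RB886 embryos, joined by a line. Most of these genes have both means under 100; the exceptions are adr-2 (2110 and 133), nsy-1 (3220 and 984), C23H5.6 (134 in RB886), acs-15 (121 in RB886) and Y17D7C.4 (114 in N2).

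Only 3 of the genes higher by 2-fold had an N2 mean over 100. The glucuronosyltransferase gene ugt-64, a conjugating enzyme, rose from 391 to 793 (1.02, adjusted p = 5.87e-102 in the authors' deposited table) and had 459 against 373 in BB3. The pseudogene Y52D5A.1 rose from 136 to 353 (1.37 in the authors' deposited table), and ZK250.10 rose from 124 to 256 (1.04). In BB3 the authors' deposited table gives 0.65 for Y52D5A.1, and 0.02 (adjusted p = 0.831) for ZK250.10. Just under the threshold of 2-fold lay F49C5.t1, nhr-239 and srt-42, with log2 fold changes of 0.99, 1.00 and 1.00 in the authors' deposited table. Just over it lay lgc-37 (1.00), W03F11.4 (1.00) and F52C6.14 (1.01).

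The largest decreases included genes almost absent from the mutant. The 22 genes lower by at least 2-fold had a median mean of 26.6 in N2 and 9.32 in RB886. The predicted chemoreceptor gene srw-85 fell from 52 to 0.875 (−5.90, adjusted p = 2.1e-46 in the authors' deposited table). It was also low in BB3 embryos, at 4.75, and in BB2 embryos, at 1.22, but not in BB19 embryos, at 70.6. The neighbouring pseudogenes Y102A5C.5 and Y102A5C.6 on chromosome V fell from 19.6 to 0.927 and from 22.1 to 1.25 (−4.40 and −4.14 in the authors' deposited table). Their BB3 means were 0.549 and 1.71. In BB19 they were 27.1 and 32.6 and in BB2 37.8 and 35.2, above the N2 means.

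The kinase gene nsy-1 was the most abundant of the genes lower by 2-fold. NSY-1 stands at the head of the p38 MAP kinase cascade of immunity and neuronal asymmetry. Its mean was 3220 in N2 and 984 in RB886 (−1.71, adjusted p listed as 0 in the authors' deposited table), and it overlaps 2 annotated genes. BB3 embryos had 933 against 3070, BB19 embryos had 2870 and BB2 embryos 2390. In RB886 larvae nsy-1 fell from 1270 to 832 (−0.62, adjusted p = 2.13e-57 in the authors' deposited table). Of the 18 stress MAP kinase genes 3 were higher and 4 lower (16.7% and 22.2%, beside 18.9% and 16.7% of genes of like level), with a median log2 ratio of −0.06. Downstream of nsy-1, sek-1 fell from 1810 to 1690 (−0.09, adjusted p = 0.00256 in the authors' deposited table). The p38 kinase gene pmk-1 had 635 and 627 and did not pass the test (adjusted p = 0.923 in the authors' deposited table). The jnk-1 kinase gene, which overlaps 8 annotated genes, fell from 892 to 719 (−0.31 in the authors' deposited table) and had 0.10 in BB3.

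Other decreases concerned genes of diverse families. The globin gene glb-16 fell from 17.6 to 3.55 (−2.31, adjusted p = 2.36e-07 in the authors' deposited table), and the antimicrobial peptide gene cnc-4 from 24.5 to 7.89 (−1.64, adjusted p = 1.61e-06 in the authors' deposited table). The nuclear hormone receptor gene nhr-82 fell from 23.5 to 6.67 and, in BB3, from 22.4 to 4.57. The gene lact-6, of the beta-lactamase-like family, fell from 43.7 to 8.98 and in BB3 from 41.7 to 18.6. The neighbouring genes Y17D7C.6 and Y17D7C.4 fell from 32.2 to 12 and from 114 to 49.4. C49A1.5, C17F4.3 and Y22D7AL.11 fell from 28.6, 24.3 and 16.7 to 11.8, 9.65 and 7. C49A1.5 had 36.2 against 27.3 in BB3 and did not pass the test there (adjusted p = 0.387 in the authors' deposited table). Just inside the threshold of 2-fold lay ZK1240.10 (−1.01), C06E2.1 (−1.03) and col-98 (−1.05), and just outside it F52F10.2 (−0.98), col-17 (−0.99) and col-112 (−0.99), by the authors' deposited table.

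**Figure D4:**
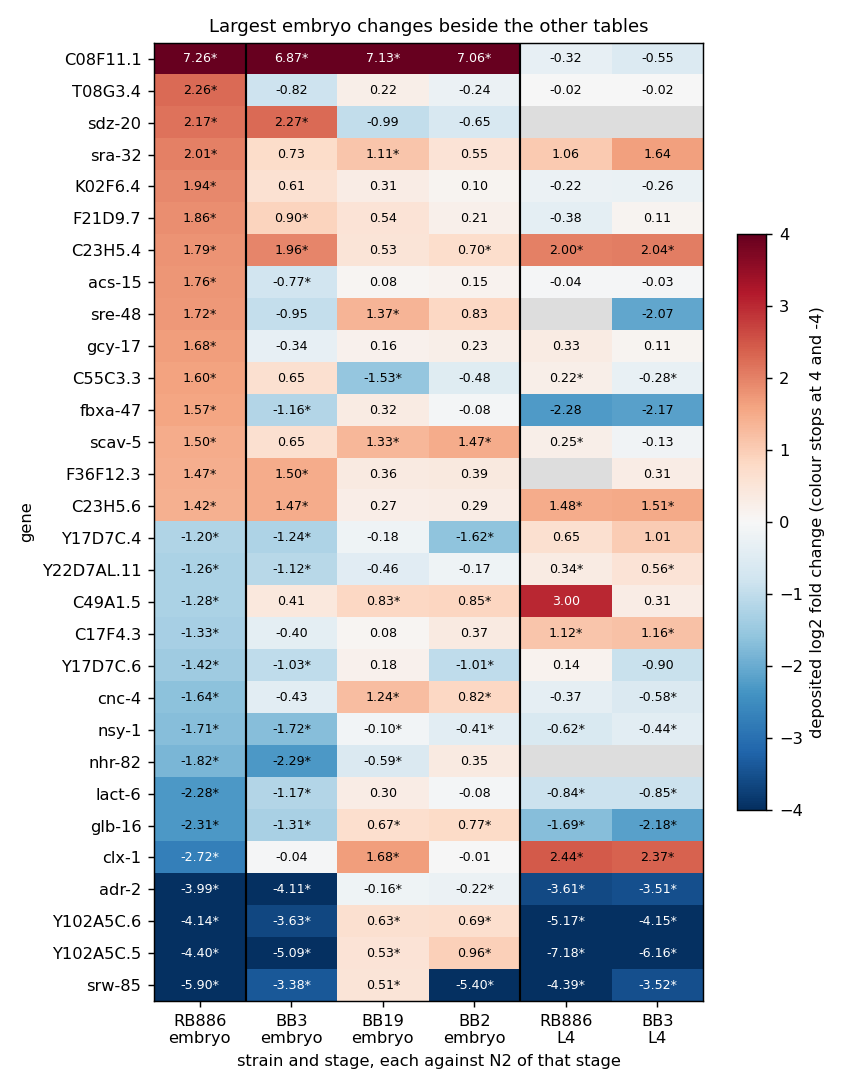
Deposited log2 fold changes of the same 30 genes in RB886, BB3, BB19 and BB2 embryos and in RB886 and BB3 larvae, each against N2 of its stage; colour runs from −4 (blue) to 4 (red), an asterisk marks an adjusted p under 0.05 and grey a ratio that is not finite. Columns of 1 stage share their N2 libraries, so likeness between them is not independent; C08F11.1 is near 7 in all 4 embryo columns and near 0 in larvae, while T08G3.4 and acs-15 are raised in RB886 embryos.

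The same strain at the L4 stage offered a comparison with no shared library. In RB886 larvae 120 genes were higher (0.464% of 25861 tested) and 252 lower (0.974%) by at least 2-fold, with the same rule. The higher genes shared between stages were C23H5.4, C23H5.5 and C23H5.6, which are 4.48% of the embryonic and 2.5% of the larval list. C23H5.4 rose in larvae from 6.72 to 27 (adjusted p = 1.24e-08 in the authors' deposited table). Of all 67 genes higher in embryos, 10 were called higher and 5 lower at L4, where 9.41% and 8.06% of all 25861 tested genes were. The median log2 fold change of the 67 at L4 was −0.06 over 62 with a finite ratio.

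Among decreases, the 7 genes lower by 2-fold at both stages were adr-2, Y102A5C.5, Y102A5C.6, glb-16, haf-6, rncs-1 and C06E2.1, or 31.8% of the embryonic and 2.78% of the larval list. Y102A5C.5 fell in larvae from 84.7 to 0.583 (−7.18, adjusted p = 8.14e-72 in the authors' deposited table). The ABC transporter gene haf-6, which is needed for efficient RNA interference, fell from 378 to 182 in embryos (−1.05, adjusted p = 1.92e-53 in the authors' deposited table) and from 630 to 158 in larvae. In BB3 embryos haf-6 had 165 against 361. The long non-coding RNA rncs-1, whose hairpin is a known editing substrate, fell from 120 to 54.6 in embryos (−1.13, adjusted p = 5.38e-19 in the authors' deposited table) and in larvae to 51.4 (−1.47). A gene of opposite direction was clx-1, which fell from 19.7 to 2.99 in embryos (−2.72, adjusted p = 6.62e-10 in the authors' deposited table) and rose from 8.87 to 48.1 in larvae (2.44). In BB3 clx-1 had 18.2 against 18.8 in embryos and 46.7 against 9.01 in larvae.

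Transcripts long known to be edited gave a mixed picture. Of 9 such genes 2 were higher and 5 lower, beside 18.9% and 16.7% of genes of like level, with a median log2 ratio of −0.10, against 0.02 over all measured genes. Beside rncs-1, C35E7.6 fell from 1310 to 1080 (−0.28, adjusted p = 1.98e-16 in the authors' deposited table). The Wnt pathway factor gene pop-1 fell from 1880 to 1720, the laminin gene lam-2 from 15000 to 13900 and the dehydrogenase gene alh-7 from 1250 to 1170. M05B5.3 rose to 162 (0.36, adjusted p = 0.00033 in the authors' deposited table), as did ZC239.6, from 273 to 319. The syntaxin gene unc-64 (946 and 883) and the lectin gene clec-41 (256 and 259) did not pass the test. In BB3 pop-1 had a log2 fold change of 0.03 and lam-2 of 0.08, and neither passed the test (adjusted p = 0.665 and 0.0826 in the authors' deposited tables). The limit on BB3 calls given above holds here too.

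Among genes lower by at least 1.3-fold, the largest decreases by difference in counts included a pair of cuticle collagen genes beside adr-2 and nsy-1. Abundant genes that fell by less than 1.3-fold, such as acdh-1 and sma-1 below, lost more counts than many of these. The collagen gene dpy-17 fell from 13400 to 10200 (−0.40, adjusted p = 5.88e-307 in the authors' deposited table), and dpy-14, a collagen made in embryos, from 8260 to 6060 (−0.45, adjusted p = 2.1e-243 in the authors' deposited table). BB3 embryos had −0.25 for dpy-17 and −0.06 for dpy-14 in the authors' deposited table. The gluconeogenic gene pck-1, listed as W05G11.6, fell from 5970 to 4340 (−0.46 in the authors' deposited table) and had 5860 against 5700 in BB3, where it did not pass the test. M03B6.3 fell from 1320 to 1000, C53A3.2 from 1340 to 1030, F31D4.5 from 1250 to 941, dao-2 from 1290 to 987 and T26C5.2 from 1050 to 785.

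Among genes higher by at least 1.3-fold, the largest increases by difference in counts included genes of muscle, eggshell and protein folding. The troponin T gene tnt-2 rose from 1210 to 1860 (0.62, adjusted p = 5.84e-132 in the authors' deposited table) and had 1780 in BB3. The eggshell proteoglycan gene cpg-2 rose from 1730 to 2260 (0.38) and had 1640 against 1650 in BB3. The chaperone gene hsp-70 rose from 1270 to 1710 (0.43, adjusted p = 6.07e-41 in the authors' deposited table). In BB3 embryos hsp-70 fell from 1220 to 788, and in RB886 larvae it fell from 1510 to 1120 (−0.63 and −0.43 in the authors' deposited tables). Y39B6A.1 rose from 420 to 783, the pseudogene R03D7.3 from 1060 to 1430, and the ribosomal RNA gene ZK218.17 from 1830 to 2520.

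Cytosolic ribosomal protein genes were lower almost as a whole. Of 82 measured genes 70 were lower and 1 was higher, with a median log2 ratio of −0.20, and 19 were lower by at least 1.2-fold. Among all genes with means over 1000 and up to 3000, where the median gene of this list lies, 793 of 2643 were lower. The small subunit genes rps-7, rps-11 and rps-14 fell most, from 3470 to 2720, from 2650 to 2090 and from 1960 to 1560. The authors' deposited table gives rps-7 a log2 fold change of −0.35 (adjusted p = 7.54e-66). The exception was rps-2, which rose from 3430 to 3810 (0.15, adjusted p = 9.85e-21 in the authors' deposited table). In BB3 embryos, where 10.4% of all 27166 tested genes were higher and 5.83% lower, 57 of the 82 were lower and none higher at a median of −0.06. In RB886 larvae, where 9.41% of 25861 tested genes were higher and 8.06% lower, 47 were higher and 4 lower at a median of 0.08. In these bulk samples, fewer cells of a type and less RNA per cell cannot be told apart.

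Translation factor and respiratory chain genes also had more members lower than higher. Of 35 translation factor genes 2 were higher and 16 lower, with a median of −0.06. The elongation factor gene eef-1A.2 fell from 12400 to 11100 (−0.16, adjusted p = 2.85e-51 in the authors' deposited table), and iff-2, the eIF5A gene, from 3040 to 2710. The cap-binding protein gene ife-5 rose from 318 to 375 (0.24). Of 44 genes of mitochondrial respiration 4 were higher and 14 lower, with a median of −0.01. The cytochrome c gene cyc-2.1 fell from 1750 to 1560 (−0.17), while ucr-2.3 rose from 1150 to 1290 (0.17, both in the authors' deposited table). The shares lower were 45.7% and 31.8%, beside the 793 of 2643 genes of like level, so that of the respiratory genes was near this background.

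Most genes of oocyte and maternal regulators were higher in RB886 embryos. Many of these proteins control maternal mRNA or polarity before the embryo's own genes are active. Of 49 measured genes 35 were higher and 5 lower, or 71.4% higher against 18.1% of all genes of like level, with a median log2 ratio of 0.15. The cytoplasmic polyadenylation factor gene cpb-1 rose from 118 to 182 (0.63, adjusted p = 1.17e-09 in the authors' deposited table), lin-41, a regulator of the oocyte-to-embryo transition, from 896 to 1280 (0.51, adjusted p = 2.69e-47 in the authors' deposited table), and rnp-8 from 462 to 645 (0.48). The polarity genes par-5 and par-1 and the kinase gene mbk-2 fell, from 5400 to 4910, from 5600 to 5220 and from 6250 to 5940.

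Further oocyte genes were picked for display after their values were seen, so their direction follows from the choice and adds nothing to the counts above. The oocyte maturation gene oma-1 rose from 1060 to 1360, pie-1, the germ lineage repressor of transcription, from 707 to 921, and the yolk receptor gene rme-2 from 1310 to 1660. The eggshell and sperm entry genes egg-1 and egg-2 rose from 492 to 628 and from 248 to 322. In BB3 embryos 26 of the 49 were higher and none lower, with a median of 0.11, and egg-1 (0.04) and rme-2 (−0.00) did not pass the test in the authors' deposited table. In RB886 larvae 4 were higher and 4 lower, with a median of −0.03.

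Most P granule genes were higher too. P granules are the germline bodies that hold maternal RNA and small RNA factors. Of 15 genes 11 were higher and 1 lower, or 73.3% higher against 18.1% of genes of like level, with a median of 0.21. The germline helicase genes glh-4, glh-2 and glh-1 rose from 1250 to 1710, from 618 to 824 and from 601 to 770 (0.45, 0.41 and 0.36 in the authors' deposited table). The granule scaffold gene pgl-1 rose from 1960 to 2280, and vbh-1, also a helicase, fell from 3840 to 3700. In BB3 embryos 6 were higher and 2 lower, and those lower were glh-4 (−0.21, adjusted p = 0.00702) and glh-1 (−0.40, adjusted p = 5.45e-10) in the authors' deposited table. In BB19 and BB2 embryos glh-4 had 623 and 706, against 1190 and 1240 in N2.

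Genes of RNA interference and small RNA pathways had more members higher than lower. Of 58 genes 22 were higher and 6 lower, or 37.9% higher against 18.1% of genes of like level, with a median of 0.06. The systemic RNA interference genes sid-2 and sid-1, which let double-stranded RNA into cells, rose from 50.2 to 74.2 and from 336 to 456 (0.56 and 0.44 in the authors' deposited table). The Argonaute genes sago-2 and ppw-1 rose from 460 to 608 and from 1540 to 2010 (0.40 and 0.38). Those that fell were led by ain-1 and ain-2, partners of the miRNA Argonautes, from 6360 to 5850 and from 4520 to 4190, and by the nuclear Argonaute gene nrde-3, from 5280 to 5000. In RB886 larvae 13 were higher and 2 lower, with a median near 0, and sid-1 had 0.03 (adjusted p = 0.892 in the authors' deposited table).

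Epidermal genes of cell junctions and the apical matrix were mostly lower. These genes shape the epidermis and its first extracellular coat during elongation. Of 30 genes 3 were higher and 19 lower, or 63.3% lower against 793 of 2643 genes of like level, with a median of −0.12. The transcription factor gene grh-1 fell from 1010 to 815 (−0.31, adjusted p = 3.41e-12 in the authors' deposited table), and the lipocalin genes lpr-1 and lpr-3 fell from 188 to 153 and from 1620 to 1400. Of members chosen after their values were seen, the heavy spectrin gene sma-1 fell from 19000 to 16500 and the matrix gene noah-1 from 5780 to 5030. The peroxidase gene mlt-7 rose from 277 to 423 (0.61, adjusted p = 7.95e-27 in the authors' deposited table). In BB3 embryos 6 were higher and 6 lower at a median of −0.01, and in RB886 larvae 22 were higher and 1 lower at a median of 0.24.

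Cuticle collagen genes moved in both directions. Of 179 measured genes 34 were higher and 26 lower (14.5% lower), beside 6.96% higher and 1.54% lower among genes of like level, with a median of 0.01. The furrow collagen genes dpy-7, dpy-2, dpy-3 and dpy-10, named after their values were seen, fell from 2520 to 1960, from 1410 to 1110, from 924 to 788 and from 3500 to 3310. In RB886 larvae all of these rose, with log2 fold changes of at least 0.755 in the authors' deposited table. Among higher genes col-180 went from 105 to 172 (0.71, adjusted p = 2.03e-15 in the authors' deposited table) and col-93 rose from 89.3 (0.67).

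Muscle and intestine genes had more members lower than higher. Of 47 muscle genes 6 were higher and 21 lower, or 44.7% lower against 793 of 2643 genes of like level, with a median of −0.10. The troponin genes tnt-3, tni-4 and tni-1 fell from 2600 to 2120, from 493 to 413 and from 1350 to 1140 (−0.30, −0.26 and −0.23 in the authors' deposited table). The pharyngeal myosin gene myo-2 rose from 2090 to 2380 (0.19). In BB3 embryos 29 of the 47 were higher and 3 lower, with a median of 0.12. Of 45 intestine genes 7 were higher and 18 lower, or 40% lower against 16.7% of all genes of like level. The saposin-like gene spp-5 fell from 264 to 190, the lysozyme gene lys-1 from 202 to 153, and acdh-1, an acyl-CoA dehydrogenase, from 12600 to 10100 (−0.32, adjusted p = 3.06e-160 in the authors' deposited table). The lysozyme gene lys-4 rose from 32.2 to 53.8 (0.74), and the cathepsin B genes cpr-5 and cpr-4 rose from 75.2 to 107 and from 78.3 to 107. In BB3 embryos 16 intestine genes were higher and 10 lower.

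Neuronal genes had more members higher than lower. Of 182 measured genes 44 were higher and 14 lower, with a median of 0.13. These shares of 24.2% and 7.69% stand beside 13.4% and 4.51% of all genes of like level. Genes of like level thus also had more members higher than lower, and both shares of the list were above theirs. The neuropeptide gene flp-21 rose from 8.27 to 19.9 (1.27, adjusted p = 7.36e-05 in the authors' deposited table), nlp-47 from 10.2 to 18.8 and the GABA transport gene unc-46 from 12.2 to 21. The flp and nlp neuropeptide genes, counted apart after their values were seen, had 21 higher and 1 lower of 74. Their median mean was 26.95, and of all genes with means over 10 and up to 30 6.96% were higher and 1.54% lower. Enzymes that mature these peptides, egl-3 and egl-21, rose from 616 to 774 and from 660 to 825. Those that fell include the potassium channel gene slo-1, from 1010 to 890. In BB3 embryos 54 were higher and 3 lower (median 0.19), and in RB886 larvae 21 were higher and 28 lower (median −0.03).

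ABC transporter genes, haf-6 apart, were higher in many cases. Of 50 measured genes 22 were higher and 3 lower, or 44% higher against 18.7% of all genes of like level, with a median of 0.18. The P-glycoprotein genes pgp-12, pgp-8 and pgp-11 rose from 10.2 to 26.4, from 11.4 to 29.3 and from 9.73 to 20.7 (1.37, 1.37 and 1.09 in the authors' deposited table). In RB886 larvae 3 were higher and 9 lower, with a median of −0.04.

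**Figure D5:**
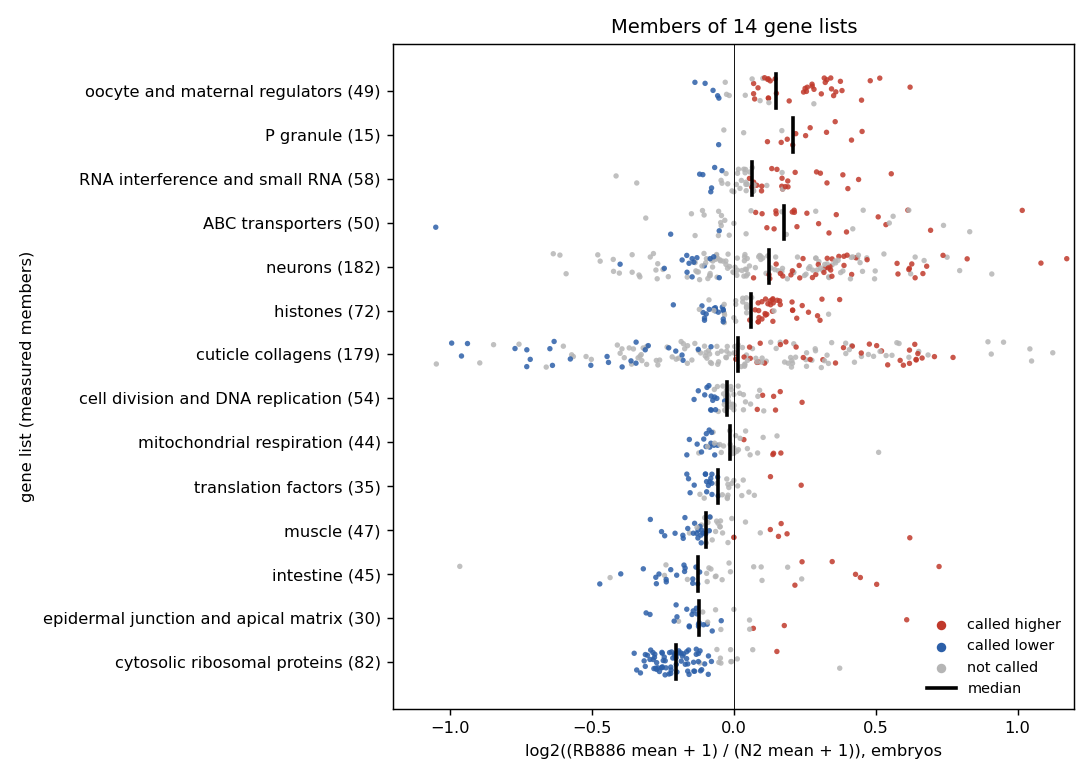
Points are the measured members of 14 gene lists by log2((RB886 mean + 1)/(N2 mean + 1)) in embryos; red and blue mark genes called higher and lower, grey those not called, black bars the list medians, and 8 members lie beyond the axis at 1.2. The bars run from 0.21 for P granule genes to −0.20 for cytosolic ribosomal protein genes.

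Marker genes of tissues were summed as well, but they are not a separate readout from these lists. Some markers are list members, among them glh-1 of the P granule list and tnt-2 and myo-2 of the muscle list. Likeness between a marker set and a list that shares its genes is partly built in. Calls depend on level, and marker calls were not set beside genes of like level. The part of the markers in the results was not tested. Summed over each marker set, 5 early embryo markers went from 10410 to 11210 normalised counts with 3 higher and none lower, and 2 germ line markers from 2561 to 3050 with both higher. The 4 epidermis markers went from 12502 to 11151 with 3 lower, and the 4 intestine markers from 6898 to 6101 with 2 lower. The intestinal fate gene elt-2 itself had 353 and 343 and did not pass the test. The 5 neuron markers went from 2370 to 2740 with 3 higher, the 4 muscle markers from 31630 to 30730 with 1 higher and 2 lower, and the 3 pharynx markers from 6358 to 7015 with 2 higher. The 4 early zygotic markers went from 1136 to 1066 with 1 higher and 1 lower. Markers of adults and larvae that could remain in a preparation were low: 3 sperm markers summed to 9.90 and 7.89 and 3 yolk genes to 86.9 and 105.5, with none called. The 3 larval cuticle markers summed to 155 and 109, with 1 lower. No marker was at 0 in either group.

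Cell division and replication genes, embryonic lineage factors and genes named for their dependence on SKN-1 had few large changes. Of 54 cell division genes 6 were higher and 13 lower (24.1% lower, beside 793 of 2643 genes of like level), with a median of −0.02, led by knl-2, from 3130 to 2840, and by the kinesin gene bmk-1, from 6370 to 5840. Of 35 lineage factors 2 were higher and 5 lower (5.71% and 14.3%, beside 18.9% and 16.7% of genes of like level). The muscle factor gene unc-120 fell from 654 to 563 (−0.21), and end-1, an endoderm specifier, rose from 136 to 161 (0.24, adjusted p = 0.0468 in the authors' deposited table). Of 36 sdz genes 3 were higher and 2 lower (8.33% and 5.56%, beside 13.4% and 4.51% of genes of like level), led by sdz-20 and by sdz-14, which fell from 584 to 502.

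Genes whose RNA was pulled down with ADR-1 were examined as a separate readout. The authors deposited lists of genes bound by FLAG-tagged ADR-1 in young adults, in strain HH76 with and in HH134 without adr-2. Of 1202 genes bound in HH76 and tested here 193 were higher (16.1% of the bound and 7.70% of the higher genes) and 271 lower (22.5% and 11.2%). Of 1170 bound in HH134 198 were higher (16.9% and 7.90%) and 249 lower (21.3% and 10.3%). Over all tested genes 9.27% were higher and 8.93% lower, and the genes bound in HH76 and HH134 were 4.44% and 4.33% of them. The levels of bound genes were not matched to the rest, and calls grow with level. Among the genes changed by at least 2-fold, C23H5.5, F46G10.4 and R13H4.2 were on both bound lists, and adr-2, col-98, haf-6 and tag-18 on that of HH134. F46G10.4 rose from 30.2 to 64.4 and R13H4.2 from 38.9 to 85.3 in RB886 embryos.

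The genes changed by at least 2-fold lay on all 6 chromosomes. Chromosome V, with 6206 tested genes, held 20 of the higher and 6 of the lower genes, and X, with 4858, held 10 and 3. Chromosomes II (4334) and IV (4203) held 12 higher and 2 lower each, I (3600) held 4 and 5, and III (3349) held 6 and 3. The other 3 higher and 1 lower gene were not matched to the annotation. Neighbours with at most 2 measured genes between them formed 8 pairs. They include gcy-17 with W03F11.4, K02F6.4 with K02F6.3 and C07G3.10 with ugt-64, which rose together, and C17F4.3 with C17F4.7, which moved in opposite directions. W03F11.4 rose from 14.4 to 28.8, and in BB3 it had 0.04 in the authors' deposited table.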

How the data were processed

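Embryo RNA of the high molecular weight fraction was depleted of ribosomal RNA and sequenced from stranded libraries, per the labels. Bowtie, DESeq and the build ce10 stand in the submitters' processing notes, with no version or role. The sources used here do not say whether counting used strand. Per the file headers, the expression signal of a transcript is the authors' mean of normalised counts in a group, given to 3 significant digits. The fold change is the authors' ratio of means, as deposited. The p-value and adjusted p are the authors' own, as deposited. The adjusted p recomputed by the Benjamini-Hochberg method differed by at most 0.0018. For RNA pulled down with ADR-1, the authors' tables hold a log2 fold change over a negative control, with a standard error and statistic that are score columns of the deposited tables and were not used. The table spells RB886 as RB668.

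The transcript with the highest sum of both means stood for its gene. A gene was called at a deposited adjusted p under 0.05, and at 2-fold if the ratio was also at least 2 (or at most 0.5) and the mean at least 10. Medians of lists use log2 of the means with a pseudocount of 1. Log2 values quoted for single genes are those of the deposited ratio. Values of single libraries were not used and none could be left out, and precision beyond counting error is unknown. Means identical to those of another gene, which share reads with copies, occurred for 1876 genes. Names, chromosomes, neighbours and overlaps come from the RefSeq annotation of WBcel235, which matched 29738 genes and differs from the authors' build, so no coordinate is given.

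The members, the 31 gene lists and the tests were chosen with earlier results of these data known. Named by rule were the 15 genes with the largest fold change and, among genes changed by at least 1.3-fold, the 10 with the largest difference of means in each direction, the 3 leading members of each list in each direction, genes changed at both stages and neighbours of adr-2. Calls and medians were checked on simulated data. Python 3.11.15 with pandas 2.3.3, numpy 2.4.6 and scipy 1.17.1 was used.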

Additional observations from a re-analysis of the deposited data

How the results depend on the processing

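The counts of 2507 higher and 2415 lower genes kept within 1.5 times their value under a threshold of 0.01 (1818 and 1800), any transcript called, a mean of at least 10, genes without identical means, adjustment over 1 transcript per gene and, added after the data were seen, means scaled to equal totals. A ratio of at least 1.5 left 479 higher and 135 lower genes. The counts at 2-fold, 67 and 22, were 11 and 6 at a mean of at least 50, 193 and 69 without a filter on means and 14 and 13 with a pseudocount of 10, which removes genes of low level by construction. They were 65 and 22 after centring, 76 and 23 with transcript means summed, and 76 and 20 at equal totals. The log2 ratio of adr-2 lay between −3.99 and −3.89. Scaling to equal totals shifts every log2 ratio by 0.03, so changes of that size depend on the scaling. Over 31 lists and 124 alternatives no median moved by 0.1, and 5 medians within 0.0229 of 0 changed sign, among them cell division, lineage factors and mitochondrial respiration. No paired analysis was possible because the deposited tables hold group means without values per library, and for the same reason no library could be left out.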

Other observations

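Counts for gene groups outside the main account follow. Over all tested genes 9.27% were higher and 8.93% lower, but calls depend on level. Genes of like level are therefore given beside most lists. Of 72 histone genes, 30 of which share identical means with a copy, 34 were higher and 17 lower (47.2% and 23.6%, against 18.1% and 793 of 2643 at means over 1000 and up to 3000), with a median of 0.06. The largest histone changes by ratio were in his-74, which rose from 172 to 223, and his-37, which fell from 341 to 294. Of 31 proteasome genes 5 were higher and 3 lower (16.1% and 9.68%). Of 62 heat shock and chaperone genes 12 were higher and 11 lower (19.4% and 17.7%), and dnj-26 rose from 103 to 153. Genes of like level for both lists are those given for the histone genes. Of 45 measured genes of the intracellular pathogen response only B0284.1 (pals-26) was called, at 10800 and 11200. Of 61 redox genes 5 were higher and 6 lower (8.20% and 9.84%, beside 6.96% and 1.54% of genes of like level). Of 147 detoxification genes 13 were higher and 9 lower (8.84% and 6.12%, beside 13.4% and 4.51% of genes of like level). Of 281 nuclear hormone receptor genes 14 were higher and 26 lower, of 236 C-type lectin genes 7 and 8, and of 499 F-box, BATH and BTB genes 25 and 36. Of 90 sperm genes 3 were higher and 1 lower. The 6 vitellogenin genes had medians of 0.37 in RB886 embryos, with vit-1 alone called (36.3 and 53.3), and of −0.81 in RB886 larvae, with all 6 lower.

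Among RNA classes of the annotation, 18 of 19 ribosomal RNA genes were higher and 1 lower, and their share of all counts was 0.848% in N2 and 0.973% in RB886, after the removal of ribosomal RNA. Only 6 of the 19 have means unlike those of every other gene. Over all tested genes 9.27% were higher and 8.93% lower, and these classes were not matched by level. Of 110 snRNA genes 10 were higher (9.09%) and 24 lower (21.8%). Of 601 tRNA genes, of which 117 have means unlike those of every other gene, 10 were higher (1.66%) and 40 lower (6.66%). A list of 696 tRNA genes chosen by name, 520 of which share identical means with a copy, had 10 higher (1.44%) and 41 lower (5.89%). Of 1514 pseudogenes 72 were higher (4.76%) and 31 lower (2.05%), beside the same 9.27% and 8.93% of all tested genes. At 2-fold 7 pseudogenes were higher and 3 lower, where 0.248% and 0.0813% of all genes were. Of 3036 genes with several transcripts 1214 had a call in any of them, and 1, the muscle gene unc-89, had calls in opposite directions.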
